A study of Mus musculus with 7 samples.

Results

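The respiratory chain and ATP synthase of mitochondria are built mostly from proteins encoded in the nucleus, and the transcripts of these nuclear subunit genes were examined in the cortex of APP/PS1 mice fed a control diet or a ketogenic diet. The genes were chosen by symbol alone. They were the Ndufa, Ndufb, Ndufc, Ndufs and Ndufv genes of complex I, Sdha to Sdhd of complex II, the Uqcr genes and Cyc1 of complex III, Cycs, the Cox4i, Cox5, Cox6, Cox7 and Cox8 genes of complex IV, and the Atp5 genes of complex V. Assembly factors of the Ndufaf series and symbols marked as pseudogenes were left out. The rule found 87 of the 23413 symbols in the count tables, with 38 genes in complex I, 4 in complex II, 9 in complex III, 1 for cytochrome c, 18 in complex IV and 17 in complex V. Of these, 84 passed the filter on low counts and were tested among 15881 genes.

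Complex I takes electrons from NADH and complex II takes them from succinate. Both pass them to ubiquinone, from which complex III hands them to cytochrome c and complex IV to oxygen. The proton gradient that complexes I, III and IV set up drives complex V, the ATP synthase. Neurons depend on this pathway for most of their ATP, fast-spiking interneurons in particular, and both glucose and ketone bodies feed it through the citric acid cycle. The symbols do not map onto the complexes perfectly. Ndufa4 is now regarded as a subunit of complex IV, Cox7a2l helps to join complexes III and IV, and Atp5s and Atp5sl carry an older ATP synthase name without being structural subunits.

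All mice were APP/PS1 mice, which carry the APPswe and PSEN1dE9 transgenes and develop amyloid plaques, so the control group carried the transgenes too. The control diet (CD, spelled SD in the sample labels) gave 74% of its energy as carbohydrate, 10% as protein and 16% as fat, and was fed to 4 mice. On the ketogenic diet (KD), fed to 3 mice, 90% of the energy came from fat, 10% from protein and under 0.5% from carbohydrate. The mice ate chow from weaning, were assigned to a diet and housed singly at 6 months of age, and were killed at 13 months after 7 months on the diet. RNA-seq was done on total RNA from 10 mg of frozen cortex of each mouse, 1 library a mouse. Neither the labels nor the methods give the sex of these 7 mice.

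The libraries held from 22272883 to 36614954 counts, and the subunit genes together took from 0.991% to 1.22% of them. Levels are given as CPM, the counts of a gene scaled to the total of its library, and levels of different genes are compared only per kilobase of transcript. Cortical excitatory neuron markers were present in every library (summed level of 864 to 1249 CPM). The libraries also differed in ways that the diet does not define. The oligodendrocyte marker list summed to 1078 CPM in CD replicate 3, to 1126 CPM in KD replicate 3 and to 2092 CPM in KD replicate 2, and to between 3601 and 4189 CPM in the other 4 libraries. All 8 genes of that list were lower in KD, none with a raw p-value under 0.05. Xist, a transcript of the inactive X chromosome, was at 242 to 526 CPM in CD replicates 1 and 2 and KD replicates 1 and 2, and at 0.314 to 3.08 CPM in the other 3. In pieces of tissue, fewer cells of a type and less RNA per cell cannot be told apart.

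No nuclear subunit gene differed between the diets at the raw p-value of 0.01 that the study used, where 0.321% of all tested genes did (edgeR quasi-likelihood test). Yet 74 of the 84 tested genes had a lower fitted level in KD, where 51% of all tested genes did. The median log2 fold change was -0.089, against -0.0033 for all tested genes. The shift was small beside the differences between mice of the same diet. Summed over all members, the level was 12160, 11910, 9909 and 11130 CPM in CD replicates 1 to 4, and 10710, 10630 and 10020 CPM in KD replicates 1 to 3. All 3 KD libraries thus lay inside the range of the CD libraries. No member had an adjusted p-value under 0.05 (the smallest was 0.979, with Benjamini-Hochberg adjustment over all tested genes in edgeR), and 1, Ndufv1, had a raw p-value under 0.05. DESeq2 and limma-voom gave the same counts at both raw thresholds, and edgeR's likelihood-ratio test gave 0 members under 0.05 (raw p 0.076 for Ndufv1). None of the tested members had KD and CD libraries that did not overlap, where 4.2% of all tested genes had.

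The members varied together from library to library. Each gene was set against its own mean over the 7 libraries on the log2 scale. The median member stood at 0.175 and 0.16 above its mean in CD replicates 1 and 2, at -0.019 in CD replicate 4 and at -0.163 in CD replicate 3. In KD replicates 1 and 2 it stood at -0.006 and -0.023, and in KD replicate 3 at -0.131. CD replicate 1 or 2 was the highest library for 68 of the 84 members, or 80.95%, where these 2 libraries were highest for 23.54% of all tested genes. CD replicate 3 or KD replicate 3 was the lowest library for 67 members, or 79.76%, against 29.76% of all tested genes. The 2 libraries in which the members were lowest were also the 2 with the lowest oligodendrocyte markers, and the part of this in the members' levels was not tested.

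**Figure D1:**
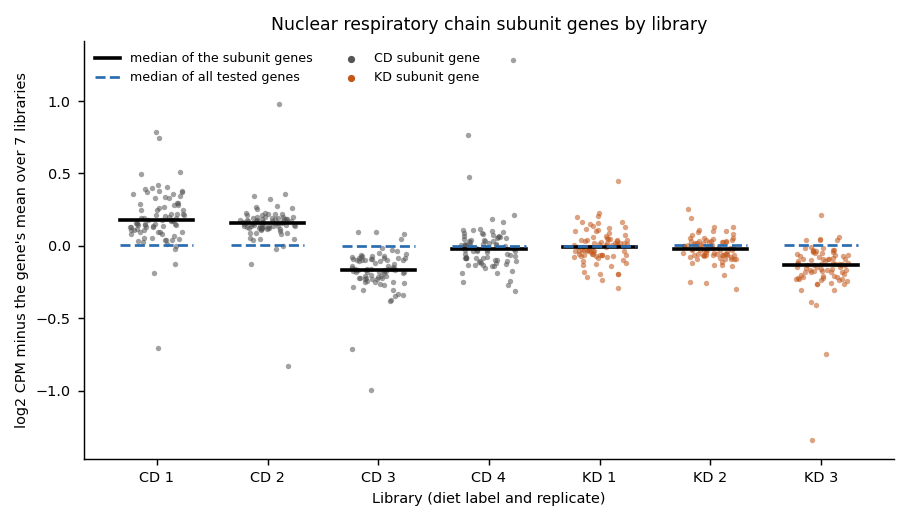
Each point is 1 of the 84 tested nuclear subunit genes, plotted as its log2 CPM minus its mean over the 7 libraries, for the CD (grey) and KD (orange) libraries. Black bars are medians of the members and blue dashes medians of all tested genes. The members' medians were 0.175 and 0.16 in CD 1 and CD 2, -0.163 in CD 3 and -0.131 in KD 3, while the medians of all genes stayed near 0.

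For 50 members, or 59.5%, all 3 KD libraries lay between the lowest and the highest CD library, where 27.6% of all tested genes had that pattern. For 58 members, or 69%, all 3 KD libraries lay below the CD median, against 19.7% of all tested genes. All 3 KD libraries lay above the CD median for 1 member, against 15.5% of all tested genes. The CD libraries were the more spread. The median coefficient of variation over the members was 11.4% in CD and 5.82% in KD, and it was the larger in CD for 72 of the 84 members. This count was not made over all tested genes. Because the members varied together, it does not stand for separate results of 72 genes.

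Because the lower KD levels rest on few libraries, the direction was followed with each library left out. Without CD replicate 1 the median log2 fold change was -0.041 and 63 of 84 members were lower, and without CD replicate 2 it was -0.047 with 63 lower. Without KD replicate 3 it was -0.063 with 63 of 85 lower. Without CD replicate 3, the control library in which the members were lowest, the median was -0.156 and 80 members were lower. In that fit 13 members had a raw p-value under 0.05, as had 7.38% of all tested genes. Of the members 1, Ndufa13, passed the raw threshold of 0.01 (raw p 0.00701, log2 fold change -0.35, edgeR), as did 1.34% of all tested genes. Without both CD replicate 3 and KD replicate 3 the median was -0.123, with 72 of 85 lower and 9 members at a raw p-value under 0.05 (5.57% of all tested genes). In the fits named above, the median of all tested genes lay between -0.0111 and 0.0006. In the 4 libraries with high Xist (2 CD, 2 KD) the members' median difference in log2 CPM was -0.172 and 80 members were lower in KD. Of all tested genes 51.19% were lower there, with a median of -0.005. In the 3 libraries with low Xist (2 CD, 1 KD) the members' median difference was -0.022 and 50 were lower. Of all tested genes 49.63% were lower there, with a median of 0.003.

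The precision sets what these libraries could show. The median standard error of a member's log2 fold change was 0.114. Of the 76 members with a mean of at least 10 CPM, 65 had a 95% interval that lay between -0.5 and 0.5, that is between a level 29.3% lower and one 41.4% higher. The intervals of these 76 members reached no further than -0.67 and 0.37. The intervals of 83 of the 84 tested members included 0, so the direction of these genes was not resolved gene by gene. That of Ndufv1 ran from -0.461 to -0.016.

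**Figure D2:**
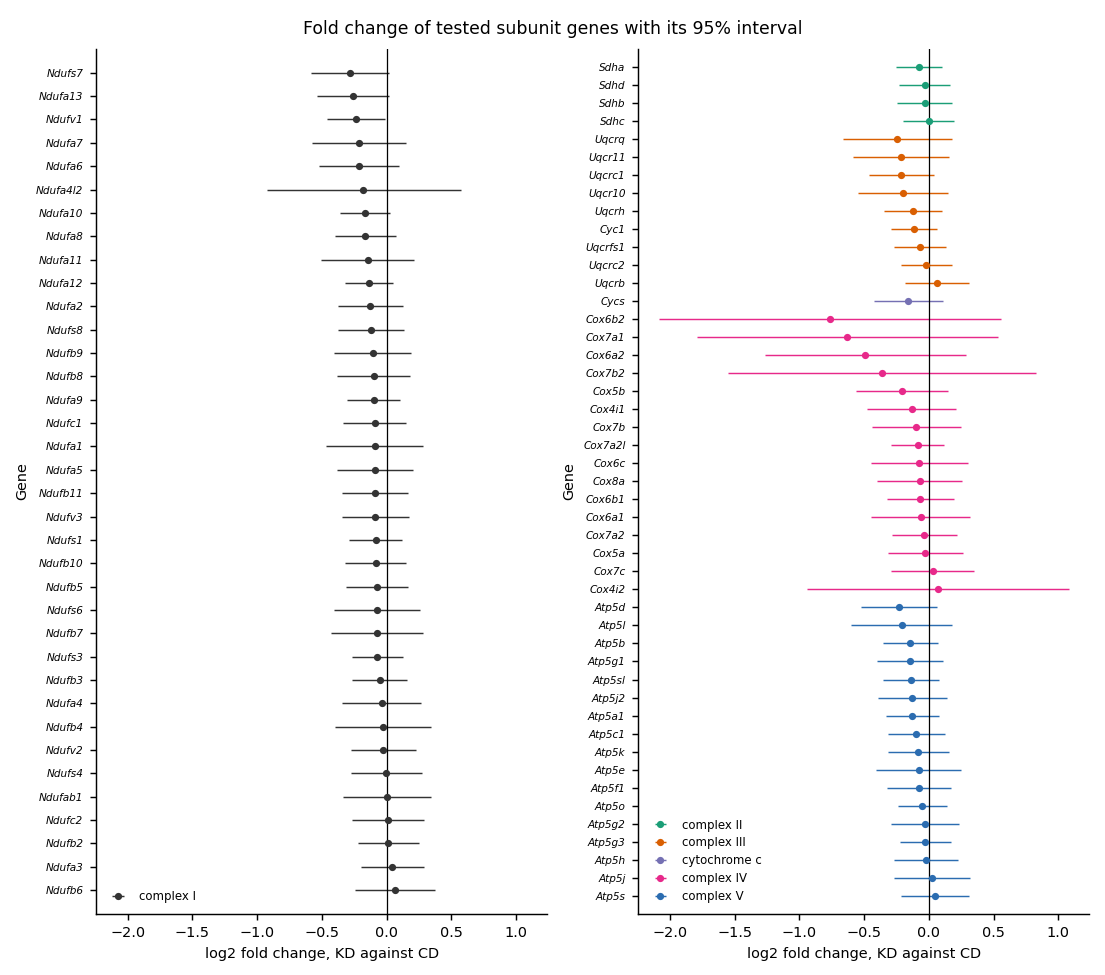
The log2 fold change of KD against CD is plotted for 83 of the 84 tested nuclear subunit genes, each with its 95% interval, for complex I on the left and the other complexes on the right. Every interval plotted includes 0 except that of Ndufv1. Most points lie below 0, and the widest intervals belong to isoforms with few counts.

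Within complex I, 32 of 37 tested genes were lower in KD, with a median log2 fold change of -0.091 and values from -0.28 to 0.064. The 7 nuclear core subunits, which hold the flavin and the iron-sulfur clusters, were lower in all 7 cases (median -0.123). The other genes grouped there by symbol, called accessory here and including Ndufa4 and Ndufa4l2, were lower in 25 of 30 cases (median -0.09). The order reversed with the trends of GC content and transcript length over all genes removed. The medians were then -0.107 for the core and -0.125 for the accessory subunits, with 7 and 30 lower. The difference between core and accessory subunits was not tested. Ndufv1, the subunit that binds FMN and oxidises NADH, was the only member with a raw p-value under 0.05, where 3.19% of all tested genes had one, 1.52% lower and 1.66% higher in KD. It lies on chromosome 19 of mm10 from 4007384 to 4012806. Its level was 198, 190, 167 and 182 CPM in the CD libraries and 149, 168 and 147 CPM in the KD libraries. KD replicate 2 lay just above the lowest CD library, so the groups overlapped. The log2 fold change was -0.24 (standard error 0.097, raw p 0.0383 and adjusted p 0.979 in edgeR), and without CD replicate 1 it was -0.20 (raw p 0.09 in edgeR). The raw p-value of Ndufv1 was also above 0.05 without CD replicate 2 (0.0875), without KD replicate 1 (0.11) and without KD replicate 3 (0.108), all in edgeR.

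Ndufs7 carries the last iron-sulfur cluster before ubiquinone, and lies on chromosome 10 from 80249121 to 80256794. Its level was 37.1, 33.4, 26.1 and 32.5 CPM in CD and 25.1, 28.4 and 25.5 CPM in KD, a log2 fold change of -0.28 (standard error 0.13, raw p 0.0599 in edgeR). CD replicate 3 was among the KD values, and the other CD libraries were above them all. Ndufa13 is an accessory subunit that spans the inner membrane. It had 112, 94.1, 77 and 98.1 CPM in CD and 79.6, 79.3 and 78.3 CPM in KD, a log2 fold change of -0.26 (raw p 0.0627 in edgeR). CD replicate 3 lay just below the KD libraries and the other CD libraries above them. Ndufa10, an accessory subunit of the membrane arm, had 161, 168, 141 and 162 CPM in CD and 136, 141 and 143 CPM in KD (log2 fold change -0.17, raw p 0.0782 in edgeR), again with CD replicate 3 among the KD values.

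Ndufs1, the largest subunit of the NADH-oxidising arm, had 223 ± 13.9 CPM in CD (SD, n = 4) and 208 ± 13 CPM in KD (SD, n = 3), a log2 fold change of -0.085. The genes that leaned the other way did so by little. Ndufb6, an accessory subunit of the membrane arm, had 66.7, 61.7, 49.3 and 49.5 CPM in CD and 62.5, 58.6 and 55.9 CPM in KD (log2 fold change 0.064, raw p 0.648 in edgeR), so that all KD libraries lay inside the CD range. Ndufa3 had a log2 fold change of 0.044. Per kilobase, the most abundant of the genes grouped under complex I by symbol were Ndufa4, with 599 ± 66.3 CPM per kilobase (SD, n = 7), and Ndufb9, with 210 ± 25.9 CPM per kilobase.

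The 4 subunits of complex II, succinate dehydrogenase, were the least shifted, with a median log2 fold change of -0.032 and values from -0.074 to -0.0008, all of them below 0. This complex is made entirely of nuclear subunits and also works in the citric acid cycle. Sdha, the flavoprotein, had 460, 465, 416 and 493 CPM in CD and 433, 421 and 444 CPM in KD (log2 fold change -0.074, raw p 0.372 in edgeR). Sdhb, the iron-sulfur subunit, had 118, 114, 96 and 108 CPM in CD and 104, 102 and 112 CPM in KD (log2 fold change -0.031). In both genes the KD libraries lay within the CD range, and KD replicate 3, among the lowest libraries for the other complexes, was the highest KD library. The median complex II gene stood at 0.007 in KD replicate 3 on the log2 scale, against -0.124 for complex I. The difference between complex II and the other complexes was not tested.

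In complex III, 8 of 9 genes were lower in KD, with a median log2 fold change of -0.124 and values from -0.24 to 0.062. Uqcrc1, a core protein of the matrix side, had 214, 193, 157 and 193 CPM in CD and 167, 163 and 156 CPM in KD, a log2 fold change of -0.21 (standard error 0.11, raw p 0.0917 in edgeR). CD replicate 3 again fell among the KD values and the other CD libraries above them. The Rieske iron-sulfur protein Uqcrfs1 had a log2 fold change of -0.07, and cytochrome c1, Cyc1, one of -0.11. Uqcrh, the hinge protein and the most abundant gene of the complex at 410 ± 34.3 CPM per kilobase (SD, n = 7), had one of -0.12. Uqcrb, which helps to bind ubiquinone, was the 1 gene above 0, at 88.9, 98.6, 80.9 and 88.7 CPM in CD and 103, 90.9 and 83.6 CPM in KD (log2 fold change 0.062, raw p 0.584 in edgeR). Cycs, the mobile electron carrier, had 96.4 ± 11.1 CPM in CD and 85.7 ± 5.89 CPM in KD (log2 fold change -0.16, raw p 0.205 in edgeR).

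In complex IV, 14 of 16 tested genes were lower in KD, with a median log2 fold change of -0.081. Cox4i1, the main regulatory subunit, had 478, 391, 306 and 351 CPM in CD and 353, 359 and 325 CPM in KD, with a log2 fold change of -0.13 (standard error 0.15, raw p 0.403 in edgeR). CD replicate 1 stood well above the other libraries, and without it the log2 fold change of Cox4i1 was -0.0036. Cox5a had a log2 fold change of -0.027, Cox6c, at 423 ± 65 CPM per kilobase (SD, n = 7), one of -0.074, and Cox7c one of 0.03. In complex V, with Atp5s and Atp5sl counted by symbol, 15 of 17 genes were lower (median -0.08, values from -0.23 to 0.048). The 5 genes of the catalytic F1 head were lower in all 5 cases (median -0.127), and the other Atp5 genes in 10 of 12 (median -0.064). Atp5b, the catalytic beta subunit, was the most abundant gene of all members at 748 ± 59.3 CPM per kilobase (SD, n = 7). It had 1525, 1568, 1350 and 1554 CPM in CD and 1382, 1379 and 1279 CPM in KD (log2 fold change -0.14, raw p 0.156 in edgeR), with CD replicate 3 among the KD values. Atp5a1, the alpha subunit, had 1218, 1260, 1068 and 1212 CPM in CD and 1078, 1099 and 1068 CPM in KD (log2 fold change -0.13), with CD replicate 3 level with the lowest KD library.

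Several subunits exist as paired isoforms, of which one serves most tissues and the other heart and muscle, lung, testis or particular cells. In every library the general isoform made up nearly all of the transcripts of its pair. Per kilobase, Cox4i1 made up 99.88% of the Cox4i pair on average over the 7 libraries, Cox6b1 99.68%, Cox7a2 98.75%, Cox7b 99.57%, Cox8a 99.82% and Ndufa4 99.89%. Cox6a1 had the smallest share among them, at 97.87% (97.61% ± 0.379 in CD and 98.21% ± 0.334 in KD, SD, n = 4 and 3). For subunit c of ATP synthase, encoded by 3 genes, Atp5g3 made up 65.02%, and the levels were 200 CPM per kilobase for Atp5g3, 85.7 for Atp5g1 and 22.1 for Atp5g2.

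**Figure D3:**
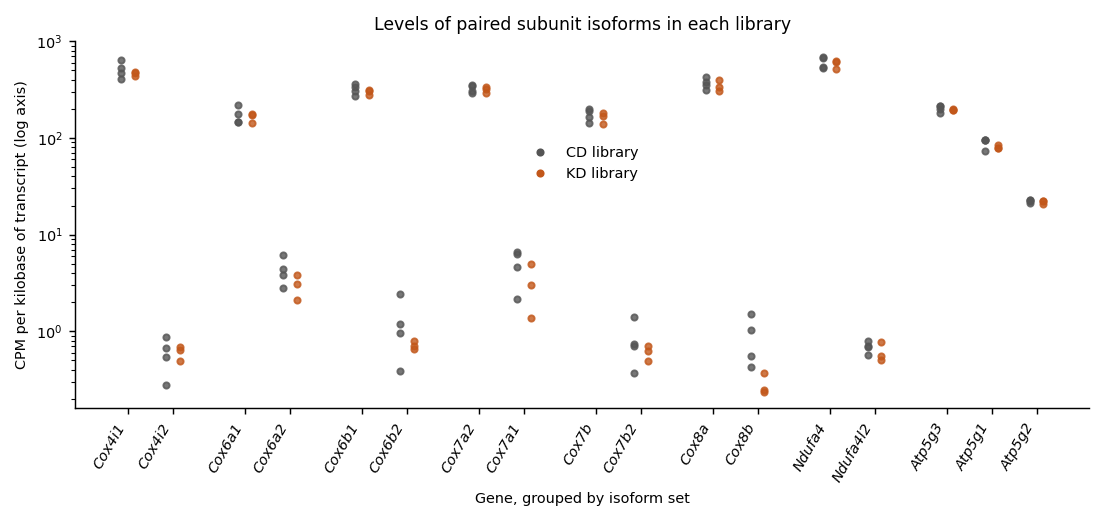
CPM per kilobase of transcript on a log axis for each gene of 8 isoform sets, with 1 point for each CD (grey) and KD (orange) library. The general isoforms lie well above their partners, at 99.88% of the pair for Cox4i1, and only the Atp5g genes are of a like order. Cox8c is left out because it had 0 counts in all libraries.

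The rarer isoforms had wide errors. Cox6a2, the muscle isoform that is also found in parvalbumin interneurons, had 4.22, 2.98, 1.89 and 2.6 CPM in CD and 2.1, 2.62 and 1.44 CPM in KD (log2 fold change -0.49, standard error 0.34, raw p 0.185 in edgeR). Of the 9 markers of parvalbumin interneurons, Cox6a2 among them, 8 were lower in KD, where 51% of all tested genes were, and 3 of these had a raw p-value under 0.05, namely Syt2, Kcnc1 and Kcns3, where 1.52% of all tested genes were lower with such a p-value. Their summed level was 668, 659, 571 and 598 CPM in CD and 531, 535 and 408 CPM in KD. Pvalb itself, the calcium buffer that names these cells, had 110, 107, 67.3 and 76.2 CPM in CD and 64.4, 67.9 and 18.6 CPM in KD (log2 fold change -0.82, raw p 0.0804 in edgeR). The libraries with the most and the least Cox6a2 were also those with the most and the least Pvalb, and the part of these cells in the level of Cox6a2 was not tested.

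Cox7a1, the heart and muscle partner of Cox7a2, had 2.45, 1.81, 0.854 and 2.6 CPM in CD and 1.97, 1.18 and 0.539 CPM in KD (log2 fold change -0.63, raw p 0.248 in edgeR). Its level was lowest in CD replicate 3 and KD replicate 3. Cox6b2, the testis isoform, had 0.656, 0.535, 0.214 and 1.34 CPM in CD and 0.385, 0.441 and 0.359 CPM in KD (log2 fold change -0.77, raw p 0.22 in edgeR), and Cox7b2 had a log2 fold change of -0.36 at levels under 1 CPM. Cox4i2 and Ndufa4l2 are known from pericytes and were at or under 0.737 CPM in every library, with log2 fold changes of 0.069 and -0.18. Their pericyte list, both genes included, summed to 143, 117, 128 and 229 CPM in CD replicates 1 to 4 and to 120 to 128 CPM in KD. Of its 8 genes 7 were lower in KD, where 51% of all tested genes were. Only 1, the potassium channel gene Kcnj8, had a raw p-value under 0.05 (log2 fold change -0.57, raw p 0.0196 in edgeR). Of all tested genes, 1.52% were lower with such a p-value.

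Cox8b, Cox8c and Ndufs5 did not pass the filter. Cox8b had 13, 6, 5 and 20 counts in CD and 2, 3 and 3 counts in KD. Pooled, that is 44 counts against 8, a ratio of KD to CD of 0.307 with an exact 95% interval of 0.125 to 0.659 for counting error only. KD counts of 3 or fewer are at the floor of what these libraries can resolve. Cox8c and Ndufs5 were listed at 0 in all 7 libraries. Ndufs5 encodes a subunit on the outer face of complex I and is used by most cells, and the 0 is not read here as its level. A near-identical gene, BC002163, had 24 to 55 counts in a library. In all, 28 members share a near-identical stretch with another annotated gene (at least 98% identity over at least 100 bases), and 15 of them with a pseudogene. The 28 include members that match an unrelated gene and not a copy, such as Ndufb11 with Rbm10 and Ndufb2 with Braf. The median level was 53.8 CPM per kilobase for the 15 and 96.5 CPM per kilobase for the other 72. The counts of the 28 genes are uncertain where reads could come from the other gene. A further uncertainty, which covers some of the same members, is that 30 members overlap a gene on the other strand.

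The wider mitochondrial lists were read in the same way. The citric acid cycle genes had 14 of 15 lower in KD (median log2 fold change -0.106), none with a raw p-value under 0.05. Assembly factors of the respiratory chain, which build the complexes without being part of them, had 21 of 36 lower (median -0.024), and 1, Cox10, a heme synthesis enzyme for complex IV, had a raw p-value under 0.05 (log2 fold change -0.35, raw p 0.0143 in edgeR). Genes of the mitochondrial membranes and of protein import had 15 of 21 lower (median -0.062), and the electron transfer proteins that feed ubiquinone by other routes, with the ATP synthase inhibitor Atpif1, had 12 of 14 lower (median -0.048). Among the latter only Prodh, proline dehydrogenase, had a raw p-value under 0.05 (log2 fold change -0.49, raw p 0.0298 in edgeR). Of all tested genes, 51% were lower in KD, and 1.52% were lower with such a p-value. Proteins of the mitochondrial ribosome had 53 of 76 lower (median -0.041) and those of the cytoplasmic ribosome 59 of 79 (median -0.064). None of the 13 subunits encoded by mitochondrial DNA was among the symbols, and they were not analysed here.

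**Figure D4:**
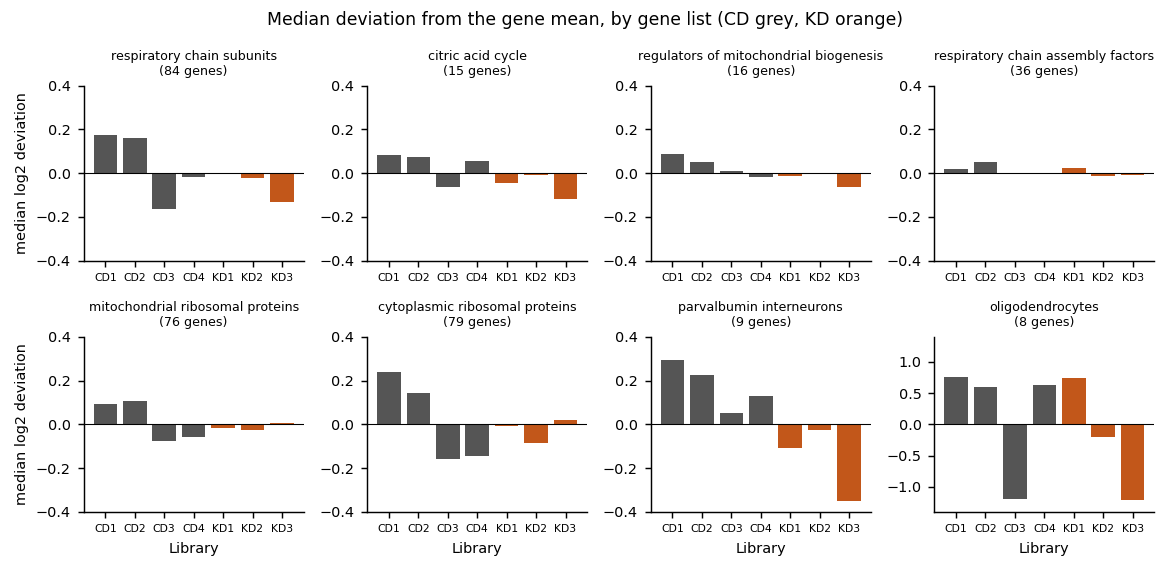
For 8 gene lists, bars give the median over the list of each gene's log2 CPM minus its mean over the 7 libraries, for CD (grey) and KD (orange). The axis of the oligodendrocyte list is wider than the others. CD 1 and CD 2 stood highest among the CD libraries for the respiratory chain subunits (0.175 and 0.16) and for the cytoplasmic ribosomal proteins (0.238 and 0.145), and the assembly factors stayed between -0.013 and 0.051.

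Among the regulators of mitochondrial biogenesis, the coactivators and transcription factors that set the output of these genes, 10 of 16 genes were lower in KD (median log2 fold change -0.102), where 51% of all tested genes were. Of these, 3 were under a raw p-value of 0.05, where 1.52% of all tested genes were lower with such a p-value. Ppargc1a, the coactivator PGC-1α, had 66.6, 66.5, 55.3 and 89.5 CPM in CD and 60, 50.6 and 43.6 CPM in KD (log2 fold change -0.42, standard error 0.17, raw p 0.0342 in edgeR). Esrra, the nuclear receptor ERRα through which PGC-1α acts on respiratory chain genes, had 28.8, 22.5, 18.9 and 29.1 CPM in CD and 17.8, 20.2 and 11.5 CPM in KD (log2 fold change -0.57, raw p 0.0333 in edgeR). Esrrg, its relative ERRγ, had 55, 52.9, 40.4 and 43 CPM in CD and 35.1, 39.3 and 22.9 CPM in KD (log2 fold change -0.55, raw p 0.0285 in edgeR). The groups overlapped for Ppargc1a and Esrra and did not overlap for Esrrg, as for 4.2% of all tested genes. KD replicate 3 was the lowest library for all 3 genes, as it was for Pvalb. The factors Nrf1 (log2 fold change -0.16), Gabpa (0.0079), Yy1 (0.083) and Tfam (-0.11) had raw p-values from 0.232 to 0.95 in edgeR. None of the 16 genes had an adjusted p-value under 0.05.

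NRF1, GABPA and YY1 bind short sequences in the promoters of many respiratory chain genes, and such sequences were counted in the members. RefSeq promoter windows on GRCm38.p6, from 250 bases before to 50 bases after the start, were at hand for 71 of the 87 members. The letters GCGCA and GCGC with any 1 base between them (NRF1), on either strand, were found in 17 of them, or 23.9%, against 5.19% of all 27025 genes with a window and 9.98% of the other tested genes. CCGGAAG (GABPA) was found in 16, or 22.5%, against 9.93% and 17.3%, and AAGATGGCG (YY1) in 8, or 11.3%, against 1.64% and 2.92%. None of the 3 strings was found in 36 of the 71. None of these strings is part of another. The stretches that follow are shown because they hold these letters, in capitals, before the start of members, and that of Ndufv1 because it was the member with a raw p-value under 0.05. All but one are on the minus strand: Sdha at chr13:74350281-74350350, Cox6a1 at chr5:115349036-115349105, Uqcrh at chr4:116075072-116075141, Ndufb6 at chr4:40279614-40279671 and Ndufv1 at chr19:4012807-4012876. Ndufa11 is on the plus strand at chr17:56717672-56717741.
Sdha: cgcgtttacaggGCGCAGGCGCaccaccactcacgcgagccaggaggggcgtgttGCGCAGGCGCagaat
Cox6a1: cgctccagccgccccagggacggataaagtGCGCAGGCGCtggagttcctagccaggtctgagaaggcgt
Ndufa11: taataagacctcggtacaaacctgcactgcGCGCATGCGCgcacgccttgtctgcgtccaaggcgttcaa
Uqcrh: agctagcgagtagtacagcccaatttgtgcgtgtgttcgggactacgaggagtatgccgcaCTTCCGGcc
Ndufb6: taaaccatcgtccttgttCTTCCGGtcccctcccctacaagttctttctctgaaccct
Ndufv1: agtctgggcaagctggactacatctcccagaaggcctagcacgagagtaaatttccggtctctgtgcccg
Sdha, Cox6a1 and Ndufa11 hold the NRF1 letters, Sdha at a pair of places, and Uqcrh and Ndufb6 hold the GABPA letters in reverse complement. The window of Ndufv1 held none of the 3 strings. A match of letters is not a measured binding site. The 16 tested members with the NRF1 letters had a median log2 fold change of -0.074, with 16 lower, and the 53 without them -0.09, with 45 lower. The members with and without these letters thus had nearly the same median.

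The members' fold changes also went with base composition, as did those of all genes. Among the 28 members of lowest GC content (36.7% to 49.9%) the median log2 fold change was -0.063 and 22 were lower, among the next 28 it was -0.092 with 25 lower, and among the 28 of highest GC content (54.8% to 61.1%) it was -0.128 with 27 lower. All tested genes at the same limits had medians of 0.031, -0.016 and -0.07. In each of these bands the members were thus below the genes of like composition. With the trends of GC content and transcript length over all genes removed from each library, 83 of the 84 members were lower, with a median of -0.116 against -0.014 for all tested genes, and none had a raw p-value under 0.05 in edgeR.

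**Figure D5:**
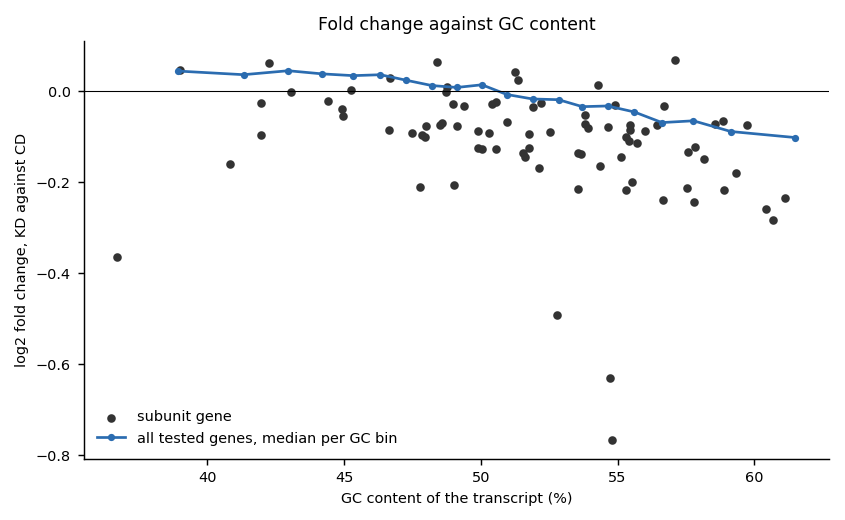
The log2 fold change of KD against CD is plotted against the GC content of the transcript for the 84 tested nuclear subunit genes (black), with the median of all tested genes in 20 bins of GC content (blue). The blue line runs from 0.045 in the bin of lowest GC content to -0.102 in the highest, and most members lie below it. The members far below the rest are Cox6a2, Cox7a1, Cox6b2 and, at the lowest GC content, Cox7b2, which have few counts.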

How the data were processed

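The values the authors deposited are raw counts for each gene symbol and mouse (4 CD, 3 KD, grouped here by sample title). They aligned reads to mm10 with STAR and counted them with the HTSeq option of STAR, whose strand setting is not given in the sources used here, so reads of genes overlapping on opposite strands may be mixed.

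KD was compared with CD over the whole table by edgeR 4.0.16 in R 4.3.3 (filterByExpr, TMM scaling, glmQLFit with robust=TRUE, glmQLFTest, no covariate), with the study's raw threshold of 0.01 and Benjamini-Hochberg adjustment over 15881 genes. All 87 members were matched to GENCODE genes of GRCm38, whose principal transcripts gave lengths. The procedure was tested on simulated data with 200 changed genes. At log2 changes of 1 and 2 it recovered 69.5% and 92.5% of them at an adjusted p-value under 0.05 in edgeR. The members' log2 fold changes, from -0.77 to 0.069, were smaller, and changes of that size were not simulated. Alternatives were other scalings and filters, DESeq2 1.42.0, limma-voom (limma 3.58.1), a likelihood-ratio test, a GC and length correction, Xist as a covariate, a replicate block and leaving out libraries. Leaving out CD and KD replicates 3 together was added after seeing the data.

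The members and gene lists were chosen with earlier results of these data known, and the core and F1 groupings after the values were seen. Genes named were the 2 highest per kilobase in each complex, the 5 smallest raw p-values in each direction, members with a raw p-value under 0.05, the isoform sets, the catalytic core and members below the filter. 1 gene that this rule names is not reported here. Genes of the mitochondrial, parvalbumin interneuron and pericyte lists with a raw p-value under 0.05 were also named, and those of the other marker lists were not. Ndufa11, BC002163, Pvalb, Atpif1, Nrf1, Gabpa, Yy1 and Tfam are named for their sequence or role.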

Additional observations from a re-analysis of the deposited data

Results flagged for a closer look

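With 65 sets of values examined in the 4 CD libraries, a test that marks about 1 set in 20 by chance singled out 5 (Dixon's test, with the gap to the nearest library divided by the range of the 4). Only 1 was a member. Atp5g1, a gene for subunit c of ATP synthase, had 50.3 CPM in CD replicate 3, where the other 3 had 65.4 to 66.1 CPM (0.953). The citric acid cycle list was also low in CD replicate 3, at 3507 CPM against 3868 to 3926 CPM (0.861). The neuron list was low in CD replicate 4, at 7716 CPM against 8944 to 9186 CPM (0.835), and the meningeal fibroblast list was high there, at 339 CPM against 55.9 to 98.5 CPM (0.849). The list of ependyma and choroid plexus was high in CD replicate 1, at 454 CPM against 13.2 to 73.8 CPM (0.863).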

How the results depend on the processing

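No alternative gave a member an adjusted p-value under 0.05, and the members' median log2 fold change stayed below 0 in all 21, from -0.156 to -0.041. Members past the raw threshold of 0.01 numbered 0 or 1 in the fits that left out libraries and 0 in the others. The number higher in KD, 10 in the reported fit, ranged from 4 to 22 with libraries left out, was 1 with the GC and length trends removed and 2 with these and a replicate block, and was 9 to 12 with other scalings, filters, tools or Xist as a covariate. Same-numbered libraries deviated together with correlations of 0.251, 0.195 and 0.098, and 4 of 6 correlated best with their own number. Neither the labels nor the methods say that the numbers mark pairs, so the reported fit does not take them as pairs. What same-numbered libraries share was not tested. The replicate block left out CD replicate 4, which had no partner. It had 1.16% of all genes at a raw p-value of at most 0.01 in edgeR, against 0.321% in the reported fit. It gave 7 members higher, a median of -0.117 and no member past that threshold. Leaving out CD replicate 4 with no block also gave 7 members higher, with a median of -0.123 and 0.211% of all genes at that threshold. Ndufv1 was not under a raw p-value of 0.05 in edgeR's likelihood-ratio test (0.076) or with the GC and length trends removed (0.113). Its raw p-value in edgeR was 0.0139 with Xist as a covariate, 0.0186 with the replicate block and 0.0234 with the block and the trends removed. With Xist as a covariate 4 members were under 0.05, as were 6.52% of all tested genes. With the block and the trends removed 5 members were, as were 6.48% of all tested genes. Of 39 named members tested, 23 kept their sign in every fit.

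The other 16 changed sign in some fit. With the GC and length trends removed, the log2 fold change was -0.062 for Uqcrb, -0.013 for Ndufb6, -0.016 for Atp5s, -0.014 for Ndufa3 and -0.071 for Cox7c. With the replicate block as well it was -0.062, -0.071, -0.023, -0.025 and -0.075 for the same genes, and with the replicate block alone -0.0015 for Ndufb6. With libraries left out the ranges were -0.105 to 0.049 for Ndufa4, -0.112 to 0.011 for Sdhb, -0.027 to 0.14 for Uqcrb, -0.174 to 0.035 for Cox6c, -0.011 to 0.152 for Ndufb6, -0.025 to 0.123 for Atp5s, -0.016 to 0.105 for Ndufa3, -0.057 to 0.116 for Cox7c, -0.148 to 0.427 for Cox4i2, -0.149 to 0.073 for Cox6a1, -0.086 to 0.034 for Cox7a2, -0.187 to 0.018 for Cox7b, -0.605 to 0.062 for Cox7b2, -0.198 to 0.022 for Cox8a, -0.074 to 0.011 for Atp5g3 and -0.162 to 0.084 for Cox5a. The cause was not tested. By plain CPM the share was 99.77% for Cox7b, 67.49% for Atp5g3 and 99.77% for Ndufa4, because transcript lengths differ. Few counts limit the isoforms under 10 CPM.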
